A study of Mus musculus with 13 samples.

Results

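Collagens, laminins and the enzymes that modify and cross-link collagen were followed across mouse melanoma cell lines in culture. They were chosen by symbol: all protein-coding collagen chain genes (Col, a number, a, a number), the laminin chains (Lama, Lamb and Lamc with a digit), the lysyl oxidases Lox and Loxl1 to Loxl4, the lysyl hydroxylases Plod1 to Plod3 and the prolyl 4-hydroxylase subunits P4ha1 to P4ha3. This gave 66 of the 35498 genes with a transcript in the files, made up of 44 collagen chains, 11 laminin chains and 11 enzymes. Of these, 47 had enough reads to be tested. The 19 untested members reached at most 0.599 CPM in any library, and 2 of them, Col13a1 and Col9a2, had no read at all. CPM is a gene's reads scaled to a common library size, and TPM further divides by transcript length. The other 17 were Col4a3, Col4a6, Col6a4, Col6a5, Col6a6, Col9a1, Col10a1, Col11a1, Col15a1, Col17a1, Col19a1, Col22a1, Col23a1, Col25a1, Col26a1, Col28a1 and Lamc3.

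The data are 13 poly(A) RNA libraries. The series concerns soluble adenylyl cyclase (sAC, encoded in the mouse by Adcy10), an enzyme that makes cyclic AMP, expressed in chosen compartments of the cell under doxycycline, a drug used to switch on inducible constructs. NLS lines 6, 7 and 16 were sampled at t0 (no doxycycline), t6 (6 h of doxycycline) and t48 (48 h), with 3 libraries per time. Their compartment label is nuclear under doxycycline and none at t0. LacZ lines 10 and 12 were sampled at t48 and t0, with 2 libraries per time. LacZ stands for a bacterial gene often used as a control insert. The compartment label of the LacZ t48 libraries is also nuclear, which goes against their titles. They were grouped by title. Every library comes from a melanoma cell line grown in vitro. The labels give neither the promoter behind the constructs nor whether a line is a clone or a pool. Libraries of a group are separate lines, and libraries with the same line number share their source. Since the labels name no other separation of cultures, the spread that the p-values measure is that of these libraries and may be technical in part.

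Adcy10 was read first as a check of the labels. It had 339 to 371 CPM in the 3 libraries of NLS line 6, 181 to 200 CPM in those of NLS line 7 and 0.671 to 1.22 CPM in those of NLS line 16. LacZ libraries had at most 3 Adcy10 reads each. The level went with the line number and not with the time label, and the labels do not say whether the reads come from the construct. The times below are therefore those that the libraries are labelled with. Library totals were 18512887 to 22584628 estimated reads. Summed over 8 melanocyte genes, the pigment lineage had 3.24 to 5.87 CPM in all 13 libraries, most of it Mitf, and Tyrp1, a pigment enzyme, had no read in any, so the lineage markers of melanoma were close to absent. Endothelial, leukocyte and keratinocyte markers each summed to at most 15.1 CPM in any library. Kdr, Emcn and Cd3e, defining genes of endothelium and T cells, were at 0 in all groups. Other genes of these lists had reads in all 13 libraries: Cd68 (leukocyte) had 5.64 to 14.2 CPM, Pecam1 (endothelium) 2.08 to 4.2 CPM and Krt10 (keratinocyte) 1.6 to 4.05 CPM. The leukocyte sum of 5.99 to 15.1 CPM lay above the melanocyte sum.

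Collagens are secreted proteins in which 3 alpha chains wind into a triple helix. Fibrillar collagens (types I, II, III, V, XI, XXIV and XXVII) build fibres, collagen IV forms the sheet-like network of basement membranes, and collagen VI forms beaded filaments around cells. Laminins are trimers of an alpha, a beta and a gamma chain that organise basement membranes and bind cell surface receptors. Prolyl 4-hydroxylases stabilise the helix, lysyl hydroxylases prepare it for cross-links, and lysyl oxidases form the cross-links outside the cell. In tumours these proteins are made mainly by fibroblasts, but melanoma cells that have lost pigment genes also make them.

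In the NLS lines more members were lower than higher at t6, and more were higher than lower at t48. At t6 against t0, 9 members were higher and 18 lower (edgeR quasi-likelihood test, Benjamini-Hochberg adjusted p below 0.05 over all 13044 genes tested). These 27 are 57.4% of the members tested. Of all genes 20.8% were called, 11.6% higher and 9.23% lower. At t48 against t0, 27 were higher and 5 lower, or 68.1% of the members tested, against 26.1% of all genes (14.8% higher and 11.3% lower). The median log2 fold change of tested members was -0.32 at t6 and 0.42 at t48, beside 0.00 and -0.01 over all genes. Between t48 and t6, 29 members were higher and 2 lower, where 28.2% of all genes were called (14.6% higher and 13.6% lower). In the LacZ lines, 8 members were higher and 7 lower at t48 than at t0, where 18.5% of all genes were called (8.68% higher and 9.87% lower), and the median was -0.06. With cell line as a block the LacZ counts were 10 higher and 14 lower, where 33% of all genes were called. Without line 10, and also without line 12, 6 LacZ calls were made in all, where 3.9% and 4.38% of all genes were called. The NLS and LacZ changes from t0 to t48 differed for 24 members, 18 in the direction of a higher NLS change and 6 in the other, where 23.3% of all genes were called (12.1% and 11.2%). Comparisons that use the same group share its libraries. Each fit was repeated with every library and every line of the compared groups left out in turn, called leave-out fits here. At least 1 leave-out fit lost 14 of the 27 calls for NLS t6 against t0, 14 of the 32 for NLS t48 against t0, 5 of the 31 for NLS t48 against t6, 10 of the 15 in LacZ and 8 of the 24 differences.

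**Figure D1:**
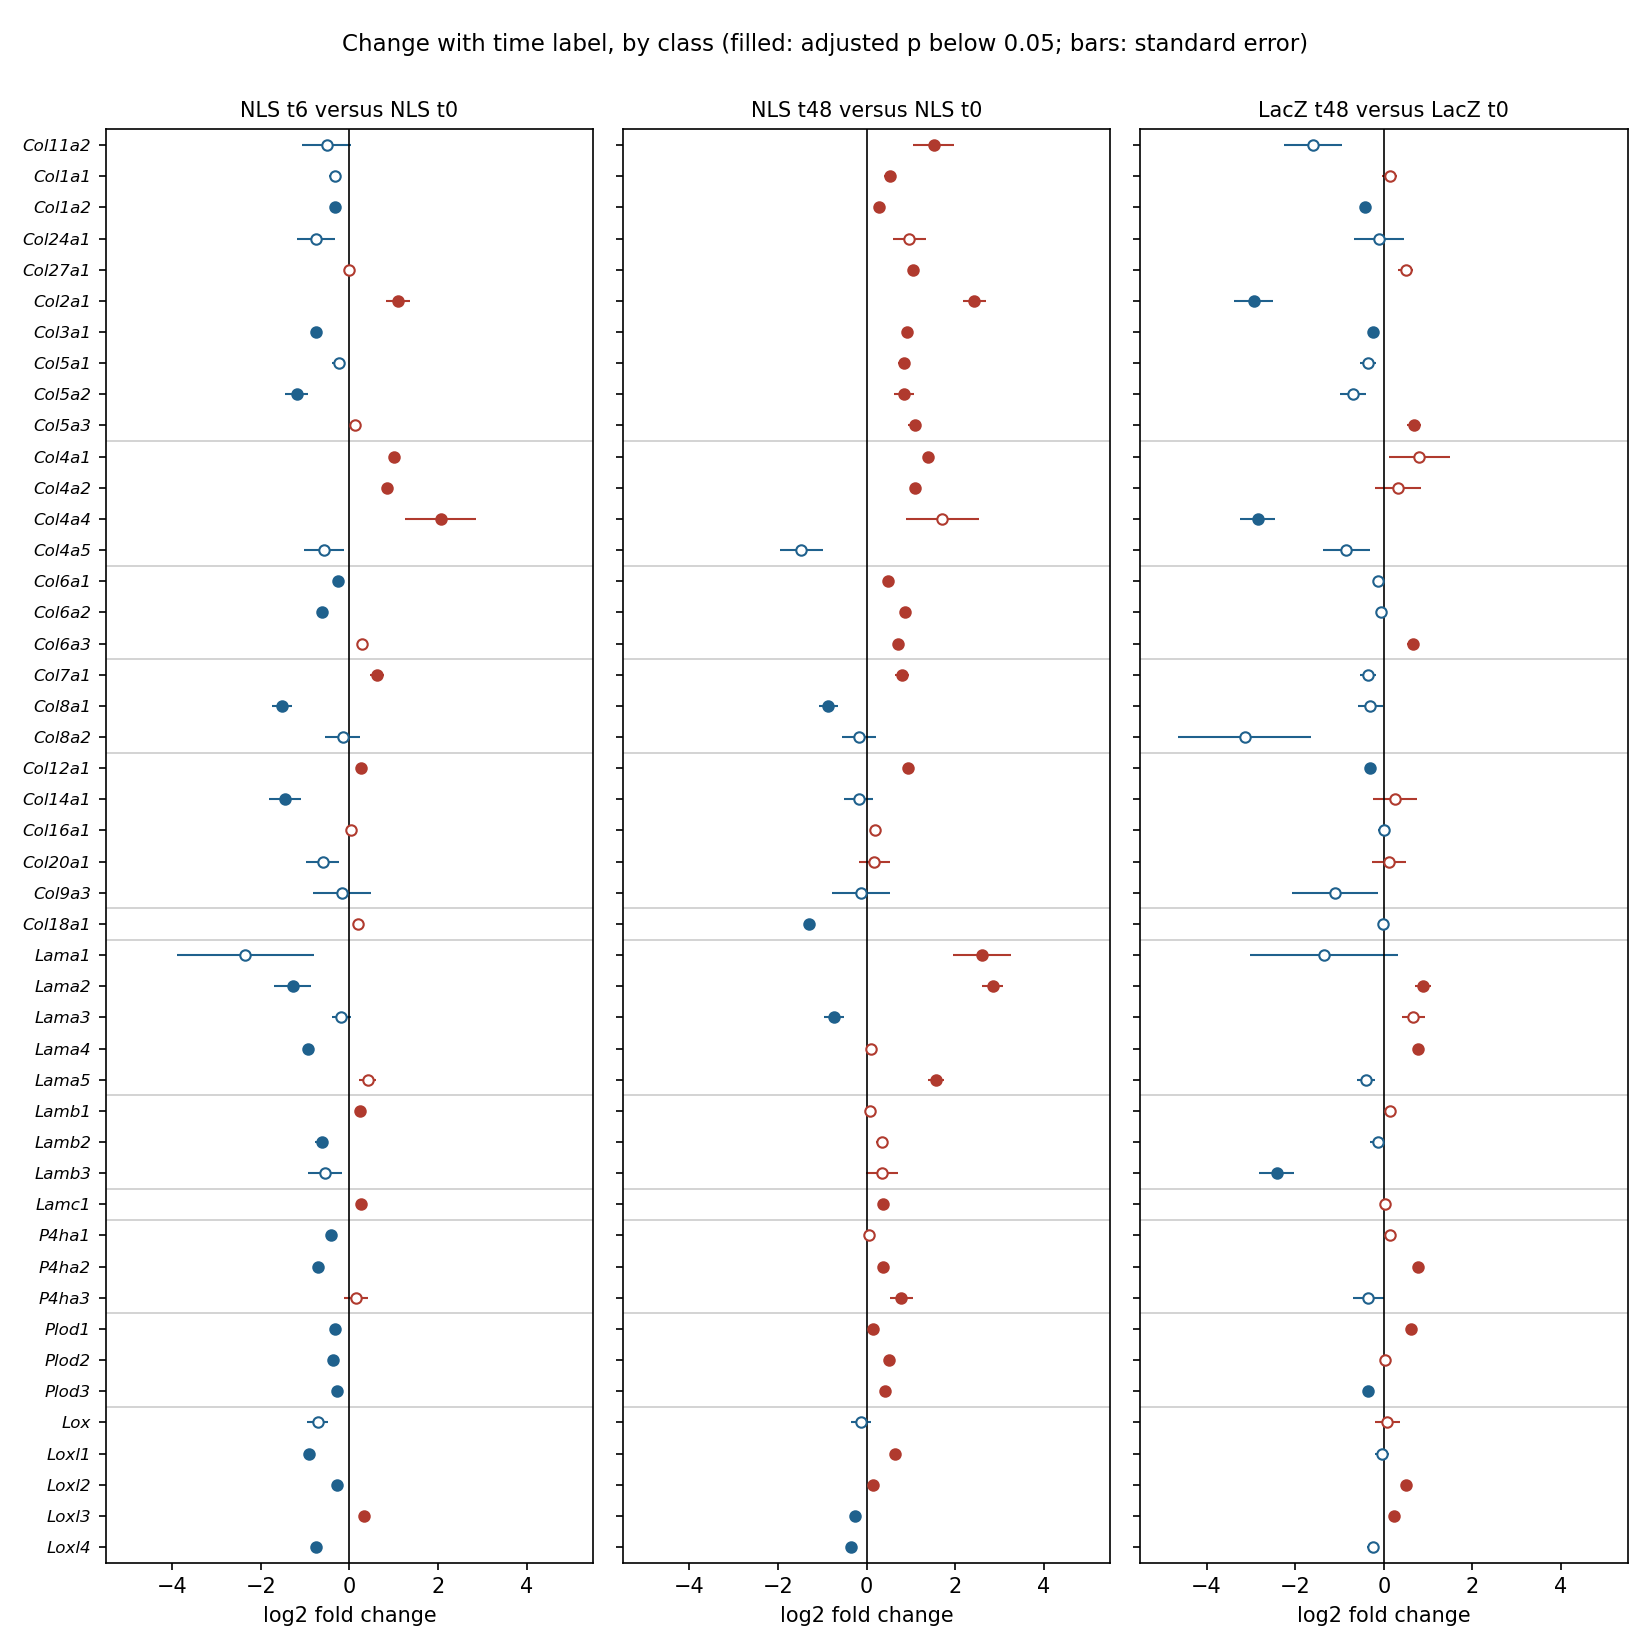
Log2 fold change of tested members, grouped by class from fibrillar collagens (top) to lysyl oxidases (bottom), in 3 comparisons with t0: the NLS lines at t6, the NLS lines at t48 and the LacZ lines at t48. Filled points have an adjusted p below 0.05, open points do not, and bars are standard errors (the larger of that from the test and that of read counting). In the NLS lines, 1 fibrillar collagen is called higher and 3 lower at t6 and 9 are called higher at t48, and all 3 lysyl hydroxylases are called lower at t6 and higher at t48. Of all genes, 11.6% were called higher and 9.23% lower at t6, and 14.8% higher and 11.3% lower at t48.

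Of the 47 tested members, 12 were lower at t6 and higher at t48 than at t0 in the NLS lines, which is 25.5% of them, against 0.981% of all genes tested. Both comparisons share the t0 libraries. These 12 were Col1a2, Col3a1, Col5a2, Col6a1, Col6a2, Lama2, Loxl1, Loxl2, P4ha2, Plod1, Plod2 and Plod3. Leave-out fits lost the t6 call, the t48 call or both for Col1a2, Col5a2, Col6a1, Lama2, Loxl2, P4ha2, Plod1 and Plod3, as given below. Another 6, or 12.8% against 5.2% of all genes, were higher at both times (Col12a1, Col2a1, Col4a1, Col4a2, Col7a1 and Lamc1). At t48 alone 9 were higher (Col1a1, Col5a1, Col5a3, Col6a3, Col11a2, Col27a1, Lama1, Lama5 and P4ha3), or 19.1% against 8.63% of all genes, and 2 lower (Col18a1 and Lama3), or 4.26% against 7.82%. At t6 alone 2 were higher (Col4a4 and Lamb1), or 4.26% against 5.68%, and 4 lower (Col14a1, Lama4, Lamb2 and P4ha1), or 8.51% against 5.51%. Col8a1 and Loxl4 were lower at both times, as were 2.74% of all genes, and Loxl3 was the one member higher at t6 and lower at t48, as were 0.713% of all genes. The other 9, or 19.1% against 62.7% of all genes, passed at neither time, among them Col4a5, Col8a2, Col16a1, Lamb3 and Lox. With cell line as a block 8 more members passed at t6, among them Col1a1, Col4a5, Col6a3, Col18a1, Lama5, Lamb3 and Lox, and 4 more at t48 (Col4a4, Col4a5, Col16a1 and Lamb2), so these members change place in this sorting. Counts of all genes called fell at both times with any NLS line left out. Member counts fell too, except at t6 without line 7, where they rose from 27 to 31. Without line 6, 3 members were higher and 12 lower at t6, where 4.66% of all genes were higher and 3.05% lower, and 17 were higher and 2 lower at t48, against 7.77% and 4.59%. Without line 16, the line with little Adcy10, the counts were 3 higher and 15 lower at t6, against 6.24% and 4.27% of all genes, and 22 higher and 2 lower at t48, against 9.85% and 6.5%. Without line 7 they were 10 and 21 at t6, against 11.1% and 8.05%, and 23 and 4 at t48, against 12.6% and 8.82%.

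Summed markers of other cells also differed between these groups. Fibroblast and pericyte sums were both highest at t48 among the NLS groups, but in LacZ the first was lower and the second higher at t48. The 7 fibroblast markers, which include the matrix genes Dcn, Lum and Postn, summed to 509 to 557 CPM at NLS t0, 419 to 487 CPM at t6 and 856 to 953 CPM at t48, against 252 to 257 CPM at LacZ t48 and 389 to 409 CPM at LacZ t0. Lum had no read in any group except LacZ t0, and Thy1 and Fap had at most 0.0942 and 0.435 CPM in any library. The 6 pericyte and smooth muscle markers summed to 361 to 788, 646 to 1098 and 1406 to 2071 CPM in the 3 NLS groups, against 1548 to 1894 CPM at LacZ t48 and 383 to 481 CPM at LacZ t0, most of it Acta2. Rgs5, Myh11 and Cspg4 of that list had at most 0.141, 0.15 and 0.35 CPM in any library. The part of these markers in the results was not tested. In bulk RNA, fewer cells of a type and less RNA per cell cannot be told apart.

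The largest log2 fold changes of members between the constructs were in collagen IV. Col4a1 and Col4a2, the chains found in nearly all basement membranes, were abundant in the NLS lines and nearly without reads in the LacZ lines. Col4a4, a chain of specialised basement membranes such as that of the kidney filter, had 5.36 and 6.14 CPM at LacZ t0. At LacZ t48 it had 0.723 and 0.87 CPM, and in the NLS libraries at most 0.372 CPM. Col4a1 and Col4a2 lie head to head on chromosome 8, with a distance of -21 bases from the Col4a1 start site (11312826, minus strand) to that of Col4a2 (11312805, plus strand), so the starts of the 2 genes overlap. Col4a4 (start 82586849, minus strand) and Col4a3 (start 82586921, plus strand) form a like pair on chromosome 1 with 71 bases between their start sites. The promoter windows of these chains (RefSeq, GRCm38.p6, 250 bases before to 50 bases after a start) are shown because both genes of a pair use the same short stretch. Capitals mark the 78 bases that the Col4a1 and Col4a2 windows share, read on opposite strands, and, for Col4a4, the 71 bases between the Col4a4 and Col4a3 starts. The windows are chr8:11312777-11313076 (minus strand), chr8:11312555-11312854 (plus strand) and chr1:82586800-82587099 (minus strand).
Col4a1: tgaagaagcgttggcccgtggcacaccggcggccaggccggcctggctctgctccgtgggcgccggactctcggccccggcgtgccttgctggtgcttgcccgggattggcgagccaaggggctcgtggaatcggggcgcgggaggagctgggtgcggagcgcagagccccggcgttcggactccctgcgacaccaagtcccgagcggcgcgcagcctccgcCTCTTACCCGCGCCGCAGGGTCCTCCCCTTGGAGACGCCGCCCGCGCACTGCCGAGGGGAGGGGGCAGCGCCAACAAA
Col4a2: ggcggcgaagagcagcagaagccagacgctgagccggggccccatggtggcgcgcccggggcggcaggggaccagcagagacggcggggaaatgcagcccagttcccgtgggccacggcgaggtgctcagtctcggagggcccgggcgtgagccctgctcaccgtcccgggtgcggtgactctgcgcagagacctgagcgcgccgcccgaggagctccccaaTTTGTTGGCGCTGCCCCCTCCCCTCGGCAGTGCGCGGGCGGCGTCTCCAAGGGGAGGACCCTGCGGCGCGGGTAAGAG
Col4a4: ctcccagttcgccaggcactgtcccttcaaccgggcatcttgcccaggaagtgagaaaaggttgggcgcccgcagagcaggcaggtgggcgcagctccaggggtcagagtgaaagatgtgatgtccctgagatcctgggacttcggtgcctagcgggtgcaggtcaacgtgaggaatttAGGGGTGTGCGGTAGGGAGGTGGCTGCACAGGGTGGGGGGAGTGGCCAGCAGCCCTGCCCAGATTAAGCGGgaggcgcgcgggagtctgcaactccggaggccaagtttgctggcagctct

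The Col4a1 and Col4a2 windows were 74% and 73.7% G and C, that of Col4a4 63.3%, and the median of all 32851 windows was 52.7%. On either strand, the Col4a1 window held 1 CCAAT and 1 GGGCGG (the GC box), the Col4a2 window 1 CCAAT and 3 GGGCGG, and the Col4a4 window neither. Of the 46 members with a window in the table, 32.6% had CCAAT and 65.2% GGGCGG, against 37.4% and 35.7% of all windows. The cyclic AMP response element TGACGTCA was in 1 of the 46 windows, that of Col24a1, and in 1.79% of all windows. Other searches gave TGACG in 17.4% of members' windows and 20.8% of all windows, TATAAA in 15.2% and 13.6%, and CACGTG in 0% and 7.15%. TGACG lies inside TGACGTCA, and CCAAT read on the other strand can share G letters with GGGCGG. A match is a description of the letters and not a bound site.

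Col4a1 had 75.5, 69.4 and 78.5 CPM at NLS t0 (lines 6, 7 and 16, the order used for all NLS values below), 151, 131 and 165 CPM at t6, and 181, 196 and 203 CPM at t48. In the LacZ lines it had 0.167 and 0.461 CPM at t48 (lines 10 and 12) and 0.161 and 0.2 CPM at t0, which is 3 to 9 reads per library. All 9 NLS libraries lay far above all 4 LacZ libraries, and within the NLS lines the 3 times did not overlap. The log2 fold change of NLS against LacZ was 8.64 ± 0.55 (SE) at t0, with adjusted p = 7.16e-12, and 9.21 ± 0.42 at t48, with adjusted p = 1.57e-12. These SEs are those of read counting, which are larger here than those derived from the test. Col4a1 passed the low-count filter through the NLS libraries, where it is high, so its calls against LacZ add no support beyond these values. Within the NLS lines the change from t0 passed at t6 (adjusted p = 6.1e-06) and was 1.38 ± 0.09 at t48 (adjusted p = 1.85e-07).

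Col4a2 followed its partner. It had 138, 111 and 131 CPM at NLS t0, 243, 194 and 248 CPM at t6, and 267, 269 and 270 CPM at t48. LacZ libraries had 0.389 and 0.512 CPM at t48 and 0.322 and 0.4 CPM at t0, or 6 to 10 reads each. Against LacZ the log2 fold change was 8.43 ± 0.39 (SE of read counting) at t0 (adjusted p = 6.08e-12) and 9.19 ± 0.35 at t48 (adjusted p = 1.57e-12). Col4a2 also passed the low-count filter through the NLS libraries, so these calls add no support beyond these values. Within the NLS lines it rose by 0.85 ± 0.09 at t6 (adjusted p = 3.36e-05) and 1.08 ± 0.09 at t48 (adjusted p = 2.22e-06). Between t48 and t6 the difference of 0.23 did not pass (adjusted p = 0.0698), and passed with cell line as a block (adjusted p = 0.00433).

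The LacZ counts of these chains were at the edge of detection. Summed over both lines, Col4a1 had 12 reads at LacZ t48, a pooled level of 0.32 CPM with an exact 95% Poisson interval of 0.165 to 0.558, and 7 reads at LacZ t0, 0.181 CPM with 0.0728 to 0.373. These intervals cover counting error only. At LacZ t0, 0 of the 7 Col4a1 reads were assigned to a protein-coding transcript. Genes beside the pair were read in both constructs. On the Col4a2 side, Rab20 had 2.81 to 4.52 CPM over the NLS libraries and 0.649 to 2.95 CPM over the LacZ libraries. Naxd beyond it had 27.9 to 33.9 CPM over the NLS libraries and 26 to 29.4 CPM over the LacZ libraries. Irs2 on the Col4a1 side had 8.86 to 19.2 CPM in NLS libraries and 2.79 to 4.74 CPM in LacZ libraries.

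Col4a4 had 0.0885, 0.0437 and 0.0479 CPM at NLS t0, 0.281, 0.156 and 0.367 CPM at t6, and 0.188, 0.0889 and 0.372 CPM at t48. LacZ libraries had 0.723 and 0.87 CPM at t48 and 5.36 and 6.14 CPM at t0. All NLS libraries lay below all LacZ libraries. Col4a4 passed the low-count filter through the LacZ libraries, where it is high, so its calls against them add no support beyond these values. NLS against LacZ gave a log2 fold change of -6.44 ± 0.73 (SE of read counting) at t0 (adjusted p = 1.28e-07) and -1.90 ± 0.48 at t48 (adjusted p = 0.00431). The t48 call was lost without LacZ line 12 (adjusted p = 0.0563). Within the LacZ lines Col4a4 fell by 2.84 on the log2 scale at t48 (SE 0.40, adjusted p = 0.000394). The NLS t6 call (2.06 ± 0.80, adjusted p = 0.0272) rests on 17 reads over 3 libraries, against 4 reads at t0. It was lost in 6 of 9 leave-out fits, with adjusted p up to 0.196 without line 16. Its neighbour Col4a3 was not tested, with at most 0.59 CPM.

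Col4a5, an X-linked chain that pairs with Col4a3 and Col4a4, had 24.8, 11.2 and 29.6 CPM at NLS t0, 19.5, 7.16 and 16.9 CPM at t6, and 8.43, 4.31 and 10.9 CPM at t48. LacZ libraries had 30.2 and 32.9 CPM at t48 and 52 and 61.6 CPM at t0. Line 7 was the lowest NLS line at each time, so the lines spread widely within a group. At t48 against t0 the NLS change of -1.48 ± 0.48 (SE) did not pass (adjusted p = 0.0534), nor did the LacZ change of -0.85 (adjusted p = 0.318). With cell line as a block both passed, with adjusted p = 5.6e-09 and 9.53e-06. The NLS change at t6 (-0.58) also passed with the block alone (adjusted p = 0.000118, against 0.432 without it), and so did that from t6 to t48 (-0.90, adjusted p = 3.73e-06 against 0.218). NLS against LacZ was -1.38 at t0 (adjusted p = 0.0436) and -2.01 at t48 (adjusted p = 0.0119), and these calls were lost in 8 of 10 and 4 of 10 leave-out fits, with adjusted p up to 0.208 and 0.0724, both without LacZ line 12.

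**Figure D2:**
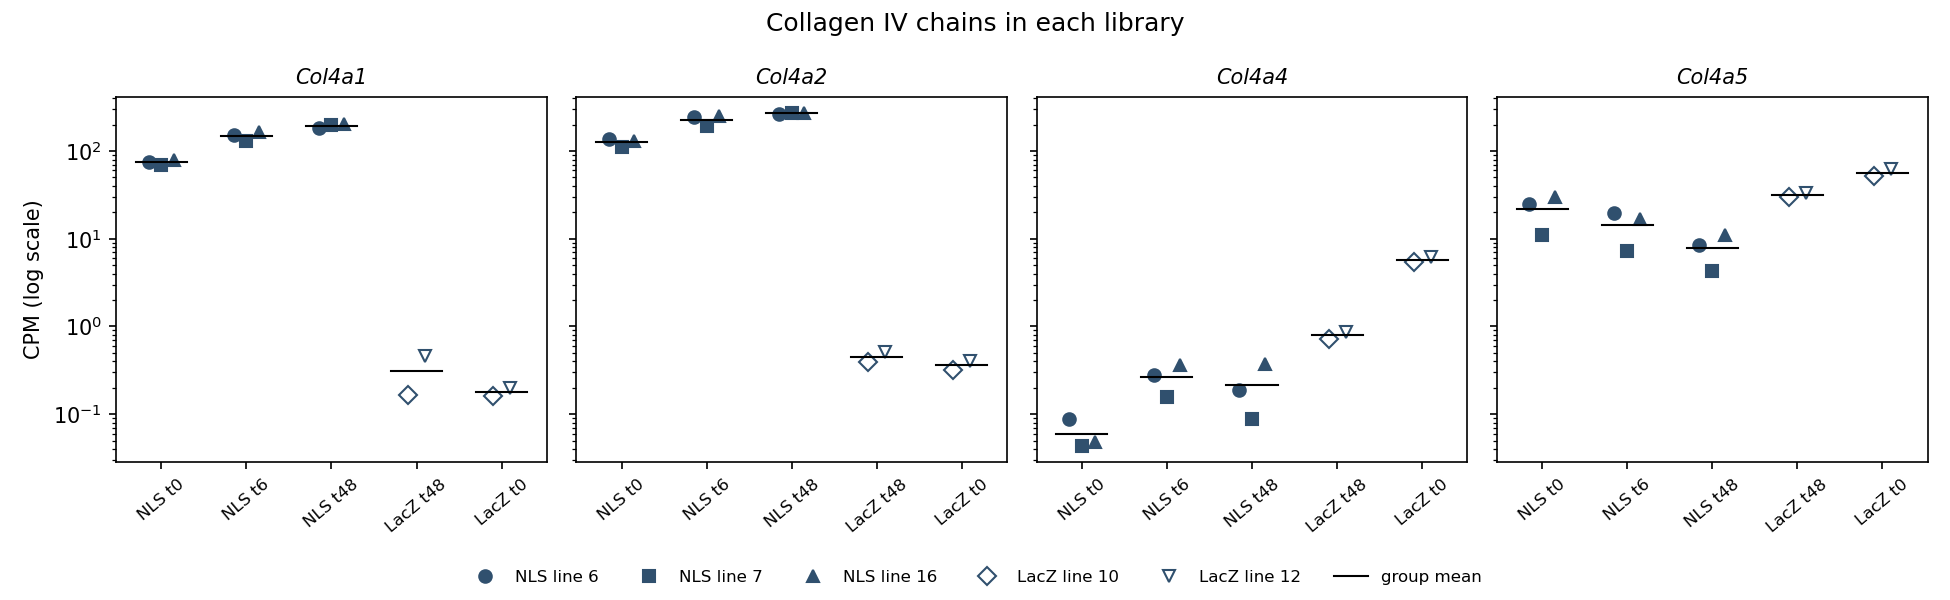
CPM (log scale) of 4 collagen IV chains in each of the 13 libraries, by group. Filled symbols are NLS lines, open symbols LacZ lines, and bars are group means. Col4a1 and Col4a2 lie at 69.4 CPM or more in every NLS library and at 0.512 CPM or less in every LacZ library, and Col4a4 is lower in every NLS library than in every LacZ library.

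Fibrillar collagens made up most collagen RNA. In the NLS lines 9 of the 10 tested were called higher at t48, against 14.8% of all genes. At t6, 1 was called higher and 3 lower, against 11.6% and 9.23% of all genes, so the 1 higher is near that share. Per length, the order at NLS t0 was Col1a1 at 1762 ± 231 TPM (SD, n = 3), Col1a2 at 1309 ± 101 TPM and Col3a1 at 1113 ± 27.9 TPM, followed by Lox at 837 ± 245 TPM. Col5a1 (309 ± 49 TPM) and Col6a3 (295 ± 17.5 TPM) came next and lay within their spread of each other. At LacZ t0 the first 3 were Col1a2 at 893 ± 26.1 TPM, Col3a1 at 889 ± 75.5 TPM and Col1a1 at 876 ± 8.2 TPM (n = 2), all within their spread. All collagen chains together took 0.488 to 0.564% of TPM at NLS t0, 0.383 to 0.468% at t6 and 0.796 to 0.808% at t48, against 0.348 to 0.352% at LacZ t48 and 0.367 to 0.388% at LacZ t0. The 3 NLS times did not overlap in this share.

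Col1a1, the major chain of collagen I, had 4920, 3655 and 4990 CPM at NLS t0, 3578, 2989 and 4299 CPM at t6, and 6128, 6583 and 6924 CPM at t48. LacZ libraries had 3119 and 2692 CPM at t48 and 2747 and 2555 CPM at t0. The t48 libraries were the highest of all. At t48 against t0 the NLS change was 0.53 ± 0.14 (SE, adjusted p = 0.0166). That call was lost without line 6 (adjusted p = 0.0658), without the t48 library of line 16, and with no filter on low counts. The t6 change of -0.32 did not pass (adjusted p = 0.134) and passed with cell line as a block (adjusted p = 0.0493). NLS exceeded LacZ by 0.77 ± 0.16 at t0 (adjusted p = 0.00247) and 1.17 ± 0.16 at t48 (adjusted p = 0.000134). The difference between the NLS and LacZ changes to t48 did not pass (0.40 ± 0.22, adjusted p = 0.22).

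Its partner Col1a2 had 3766, 3175 and 3874 CPM at NLS t0, 2907, 2612 and 3133 CPM at t6, and 4310, 4347 and 4574 CPM at t48. LacZ libraries had 2085 and 2033 CPM at t48 and 2767 and 2716 CPM at t0, so LacZ fell where NLS rose. The NLS changes were -0.32 ± 0.08 at t6 (adjusted p = 0.00951) and 0.29 ± 0.08 at t48 (adjusted p = 0.0129). Both were lost without line 6 (adjusted p = 0.127 and 0.0758), and the t48 call also without the t48 library of line 16. The LacZ change was -0.41 ± 0.09 (adjusted p = 0.0088) and was lost in 5 of 6 leave-out fits, with adjusted p up to 0.15 without line 10. The 2 changes differed by 0.70 ± 0.12 (adjusted p = 0.00109). The ratio of Col1a1 to Col1a2 by TPM was 1.34 ± 0.0794 at NLS t0, 1.33 ± 0.1 at t6 and 1.58 ± 0.0385 at t48 (SD, n = 3), against 1.48 ± 0.0867 at LacZ t48 and 0.981 ± 0.0195 at LacZ t0 (n = 2). Collagen I protein normally holds more alpha 1 than alpha 2 chains.

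Col3a1, which copolymerises with collagen I, was lower at t6 and higher at t48 than at t0 in the NLS lines. It had 2885, 2707 and 2968 CPM at NLS t0, 1683, 1732 and 1633 CPM at t6, and 5180, 5632 and 5246 CPM at t48. LacZ libraries had 2095 and 2183 CPM at t48 and 2481 and 2559 CPM at t0. The NLS times did not overlap. The changes were -0.76 ± 0.05 at t6 (SE, adjusted p = 7.13e-07) and 0.91 ± 0.05 at t48 (adjusted p = 5.99e-08), and 1.67 ± 0.05 between t48 and t6 (adjusted p = 1.64e-10). These calls held in all alternatives run. In the LacZ lines it was lower by -0.24 ± 0.06 at t48 (adjusted p = 0.0216), a call lost in 6 of 6 leave-out fits (adjusted p up to 0.221, without line 10). The 2 responses differed by 1.14 ± 0.08 (adjusted p = 1.08e-06).

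The collagen V chains, which set fibre diameter, shared the rise at unequal levels. Col5a1 had 1382, 972 and 1364 CPM at NLS t0, 1126, 823 and 1189 CPM at t6, and 2219, 2171 and 2280 CPM at t48, against 1036 and 998 CPM at LacZ t48 and 1273 and 1322 CPM at LacZ t0. Its NLS change at t48 was 0.84 ± 0.15 (SE, adjusted p = 0.00161), and it differed from the LacZ change by 1.19 ± 0.23 (adjusted p = 0.00385). That difference was lost without LacZ line 10 and without line 12 (adjusted p up to 0.0662). Col5a2, its usual partner chain, had only 4.12, 2.53 and 4.89 CPM at NLS t0, 1.83, 1.24 and 1.93 CPM at t6, and 7.39, 6.08 and 7.12 CPM at t48. The ratio of Col5a1 to Col5a2 by TPM averaged 284 ± 52.8, 549 ± 33.2 and 281 ± 26.7 in the 3 NLS groups (SD, n = 3). Col5a2 fell by 1.19 at t6 (SE 0.26, adjusted p = 0.00509) and rose by 0.84 ± 0.23 at t48 (adjusted p = 0.016), and both calls were lost without line 6 (adjusted p = 0.072 and 0.134), the t48 call also without the t48 library of line 6 alone. Col5a3 had 40.1 to 46.9 CPM at NLS t48 and 18.3 to 21.9 CPM at NLS t0 (1.08 ± 0.14, adjusted p = 0.00013), against 74.6 to 89.2 CPM at LacZ t48 and 46.9 to 54.8 CPM at LacZ t0.

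Rarer fibrillar chains also moved. Col2a1, the cartilage collagen, had 1.51, 2.01 and 1.39 CPM at NLS t0, 3.75, 4.51 and 2.3 CPM at t6, and 7.96, 9.96 and 8.71 CPM at t48, against 0.445 and 0.205 CPM at LacZ t48 and 1.93 and 3.05 CPM at LacZ t0. It rose in every NLS line and fell in both LacZ lines, by 2.43 ± 0.26 (SE) and -2.94 ± 0.45 (adjusted p = 1.71e-05 and 0.00068). The LacZ call was lost without line 12 (adjusted p = 0.067). The difference between the changes, 5.37 ± 0.51 (adjusted p = 1.03e-05), was the largest of all tested members. Col27a1 rose by 1.06 ± 0.13 at t48 in the NLS lines (adjusted p = 3.95e-05), with 26.7 to 31.5 CPM against 12.3 to 16.1 CPM at t0. Its LacZ change of 0.50 (adjusted p = 0.0549) and the difference of 0.56 (adjusted p = 0.072) passed with the block alone (adjusted p = 0.00484 and 0.00887). Col11a2 had few reads in every library. Its NLS t48 call (1.52 ± 0.46, adjusted p = 0.0259) was lost in 7 of 9 leave-out fits, with adjusted p up to 0.131 without line 6.

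**Figure D3:**
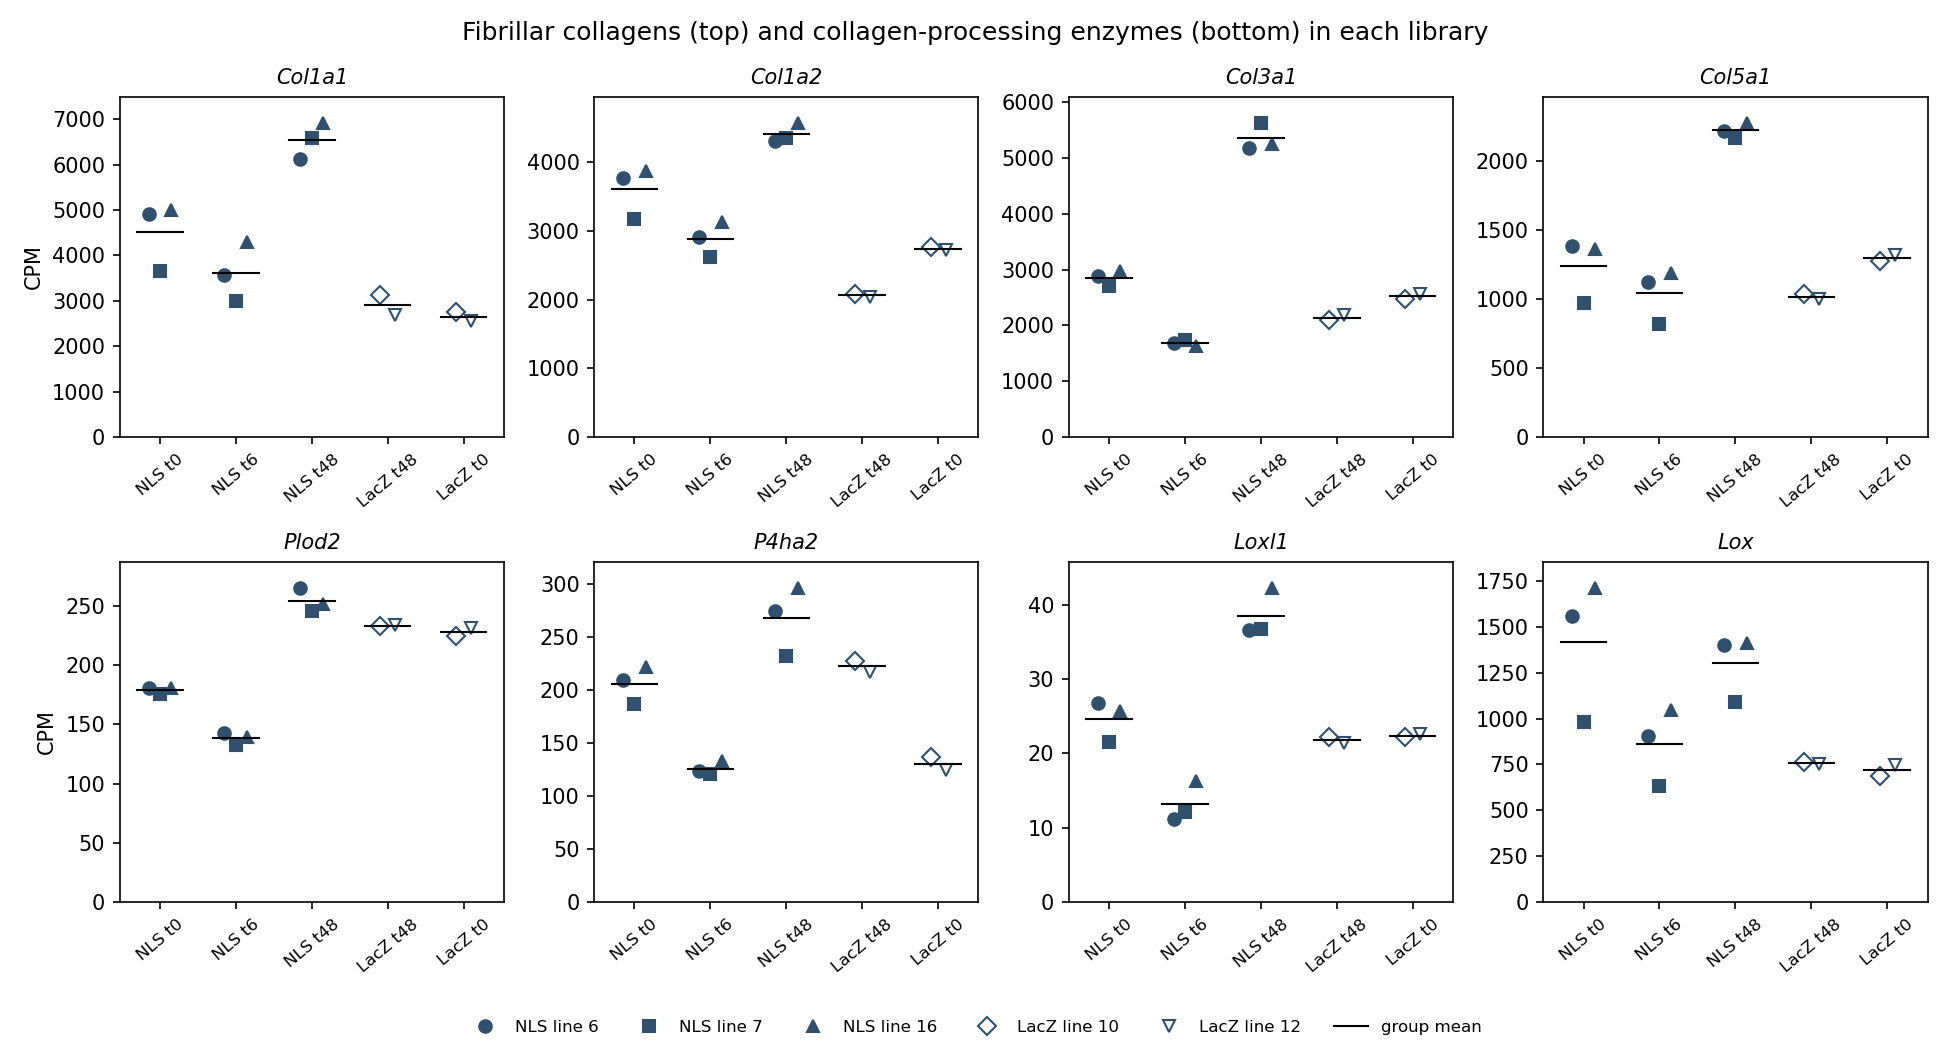
CPM of 4 fibrillar collagens (top) and 4 collagen-processing enzymes (bottom) in each library, each panel with its own axis from 0. Filled symbols are NLS lines, open symbols LacZ lines, and bars are group means. Col3a1, Plod2, P4ha2 and Loxl1 are lowest at t6 and highest at t48 among the NLS groups, while Lox spreads by line, with line 7 lowest at each time.

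All 3 tested collagen VI chains were called higher in the NLS lines at t48, as were 14.8% of all genes. Col6a2 had 149, 165 and 150 CPM at NLS t0, 95.3, 105 and 104 CPM at t6, and 250, 331 and 266 CPM at t48, against 69.5 and 60.1 CPM at LacZ t48 and 67.4 and 67.2 CPM at LacZ t0. The t6 and t48 changes were -0.61 ± 0.09 and 0.87 ± 0.09 (SE, adjusted p = 0.000648 and 2.06e-05), and the LacZ change was -0.06 (adjusted p = 0.793). Col6a1, at 302 to 337, 250 to 277 and 398 to 511 CPM in the 3 NLS groups, rose by 0.48 ± 0.08 at t48 (adjusted p = 0.000979). Its t6 call (-0.26, adjusted p = 0.0412) was lost in 7 of 9 leave-out fits, up to an adjusted p of 0.16 without line 6, and with scaling by library totals only. Col6a3, the chain with the longest non-helical part, was not lower at t6. It had 1357, 1123 and 1400 CPM at NLS t0, 1656, 1329 and 1744 CPM at t6, and 2057, 2044 and 2216 CPM at t48, against 1583 and 1431 CPM at LacZ t48 and 924 and 991 CPM at LacZ t0. Its NLS t48 and LacZ t48 changes were alike in sign, 0.70 ± 0.10 and 0.65 ± 0.12 (adjusted p = 0.000281 and 0.00349), and the second was lost without LacZ line 10 (adjusted p = 0.164). The t6 change of 0.29 passed with the block alone (adjusted p = 0.00228, against 0.0638 without it).

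Col18a1, a multiplexin of basement membranes and the source of endostatin, was lower in the NLS lines than in the LacZ lines at both times. It had 95.4, 116 and 106 CPM at NLS t0, 113, 128 and 120 CPM at t6, and 41.2, 46.1 and 42 CPM at t48, against 685 and 561 CPM at LacZ t48 and 675 and 589 CPM at LacZ t0. NLS against LacZ was -2.58 ± 0.10 at t0 (SE, adjusted p = 3.8e-10) and -3.85 ± 0.11 at t48 (adjusted p = 1.42e-11). It fell by 1.29 at t48 in the NLS lines (SE 0.09, adjusted p = 6.31e-07), while the LacZ change was -0.02 ± 0.11 (adjusted p = 0.925), and the difference was -1.27 ± 0.14 (adjusted p = 4.91e-05). The t6 change of 0.19 passed with the block alone (adjusted p = 0.00209, against 0.176 without it).

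The remaining collagens gave no common direction. Col12a1, a collagen that binds along fibres, rose in the NLS lines, with 669 to 762 CPM at t0, 793 to 912 CPM at t6 and 1277 to 1498 CPM at t48 (0.93 ± 0.08 at t48, SE, adjusted p = 2.16e-06). The t6 call (0.26, adjusted p = 0.033) was lost in 6 of 9 leave-out fits (adjusted p up to 0.358, without line 6). Its LacZ change was -0.31 (adjusted p = 0.038), lost in 5 of 6 leave-out fits (adjusted p up to 0.453, without line 12), and the difference was 1.24 ± 0.12 (adjusted p = 1.76e-05). Col7a1, which makes the anchoring fibrils of skin, had 14.6 to 16.9, 23.1 to 26.9 and 21.1 to 33.6 CPM in the 3 NLS groups. Its t6 and t48 changes were 0.62 and 0.79 (adjusted p = 0.0162 and 0.0029), and both were lost without line 6 (adjusted p = 0.121 and 0.0575) and with transcript length offsets. The t6 call was lost in 4 of 9 leave-out fits. Col8a1, a network collagen of vessels and cornea, had 111, 73.1 and 117 CPM at NLS t0, 41.6, 25.3 and 38.5 CPM at t6 and 60.5, 44.1 and 61.3 CPM at t48. It fell by 1.51 at t6 (SE 0.23, adjusted p = 0.00146). The t48 change of -0.86 (adjusted p = 0.0175) was lost in 5 of 9 leave-out fits, with adjusted p up to 0.103 without line 16. Between t48 and t6 the rise of 0.65 passed with the block alone (adjusted p = 7.73e-08, against 0.0588 without it). Col8a2 had 0.91 to 2.17 CPM over the NLS libraries and at most 0.449 CPM in any LacZ library, a difference of 2.41 ± 0.55 at t0 (adjusted p = 0.0031) and 5.37 ± 1.45 (SE of read counting) at t48 (adjusted p = 0.000159). At LacZ t48 that rests on 0.0556 and 0 CPM, so the fitted value is not a bound. Col8a2 passed the low-count filter through the NLS libraries, where it is high, so these calls add no support beyond these values. Col16a1, with 71.7 to 102 CPM over the NLS libraries, did not pass at t6 or t48 (adjusted p = 0.181 at t48) and passed at t48 with the block (adjusted p = 0.0233). Col14a1, another collagen of fibre surfaces, had 1.99, 2.97 and 1.82 CPM at NLS t0, 0.889, 1.04 and 0.552 CPM at t6, and 1.55, 2.98 and 1.43 CPM at t48, against 1.11 and 0.614 CPM at LacZ t48 and 0.643 and 0.799 CPM at LacZ t0. Its t6 call (-1.45, adjusted p = 0.0121) was lost in 3 of 9 leave-out fits (adjusted p up to 0.0798, without line 6). Col24a1 was higher in NLS than in LacZ at t48, with 1.38 ± 0.184 CPM (SD, n = 3) and 0.434 ± 0.251 CPM (n = 2, adjusted p = 0.00977), a call lost without LacZ line 12 (adjusted p up to 0.123). Col20a1 and Col9a3, at no more than 1.54 and 1.01 CPM, passed in no time or construct comparison with edgeR over all libraries.

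The constructs held different mixtures of laminin alpha chains. Shares of TPM depend on how reads were assigned to transcripts. Lama4, the alpha chain of laminins in vessels, fat and muscle, took 93.8% of alpha-chain TPM at NLS t0, 86.7% at t6 and 86.4% at t48 (means of 3), against 45% at LacZ t48 and 30.7% at LacZ t0 (means of 2). Lama5, the widespread alpha chain of mature basement membranes, took 5.01%, 11.9% and 11.2% in the 3 NLS groups, against 43.9% at LacZ t48 and 62.9% at LacZ t0. No NLS library had under 83.6% Lama4, and no LacZ library over 45.8%. Alpha-chain TPM in all was 47.4 ± 3.03, 27.8 ± 1.51 and 56.7 ± 4.15 in the NLS groups (SD, n = 3), and 34 ± 2.12 and 31.7 ± 1.11 at LacZ t48 and t0 (n = 2).

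**Figure D4:**
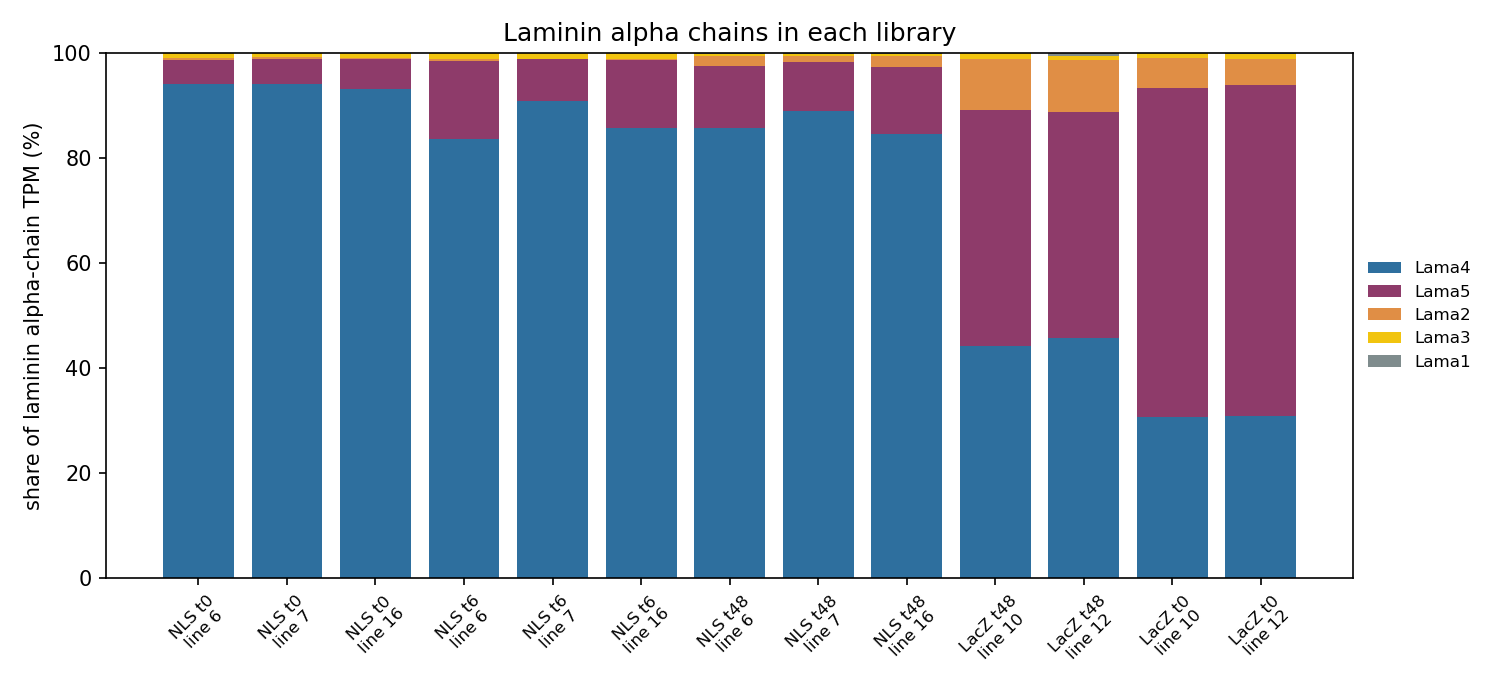
Share of each laminin alpha chain in the summed alpha-chain TPM of a library (percent, stacked to 100), for the 9 NLS libraries (left) and the 4 LacZ libraries (right). Lama4 fills 83.6% or more of each NLS bar and 45.8% or less of each LacZ bar, where Lama5 and Lama2 take most of the rest.

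Lama4 had 189, 209 and 190 CPM at NLS t0, 108, 105 and 95.7 CPM at t6, and 203, 230 and 198 CPM at t48, against 67 and 75.3 CPM at LacZ t48 and 40.2 and 43.3 CPM at LacZ t0. It fell by 0.93 at t6 (SE 0.07, adjusted p = 2.07e-06), and the t48 change of 0.10 did not pass (adjusted p = 0.321). The LacZ lines rose by 0.77 ± 0.09 (adjusted p = 0.000153), and the difference of the changes was -0.66 ± 0.12 (adjusted p = 0.00139). NLS exceeded LacZ by 2.23 ± 0.09 at t0 (adjusted p = 3.82e-10) and 1.56 ± 0.09 at t48 (adjusted p = 6.93e-09).

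Lama5 had 12.9, 10.8 and 16.3 CPM at NLS t0, 17, 13.1 and 22.9 CPM at t6, and 39.2, 35.1 and 43.9 CPM at t48, against 109 and 102 CPM at LacZ t48 and 140 and 138 CPM at LacZ t0. It rose by 1.56 ± 0.19 at t48 in the NLS lines (SE, adjusted p = 0.000132). At t6 the change of 0.41 passed with the block alone (adjusted p = 0.000894, against 0.162 without it), as did the LacZ change of -0.40 at t48 (adjusted p = 0.000391, against 0.2). NLS stayed below LacZ, by -3.39 ± 0.20 at t0 (adjusted p = 1.82e-07) and -1.42 ± 0.19 at t48 (adjusted p = 9.59e-05).

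Lama2, the alpha chain of muscle and nerve laminin, went with it in both respects. It had 0.796, 0.568 and 0.527 CPM at NLS t0, 0.421, 0.207 and 0.138 CPM at t6, and 4.57, 4.71 and 4.48 CPM at t48, against 19.5 and 19.3 CPM at LacZ t48 and 9.79 and 11.3 CPM at LacZ t0. The NLS t48 change was 2.85 ± 0.24 (SE of read counting, adjusted p = 5.19e-07), and the LacZ change 0.88 ± 0.18 (adjusted p = 0.00495), lost in 3 of 6 leave-out fits (adjusted p up to 0.193, without line 10). NLS against LacZ was -4.05 ± 0.23 at t0 (adjusted p = 4.59e-09) and -2.08 ± 0.17 at t48 (adjusted p = 3.17e-07). The t6 call (-1.28, adjusted p = 0.0133) rests on 16 reads over 3 libraries, against 42 at t0, and was lost in 4 of 9 such fits (adjusted p up to 0.103, without the t6 library of line 16). Lama1 and Lama3 lay at or below 2.51 CPM in all libraries. Lama1 had 43 reads summed over NLS t48, against 7 at NLS t0, and its call (2.61, adjusted p = 0.0102) was lost without line 6 (adjusted p = 0.0751) and with transcript length offsets. Lama1 passed the low-count filter through the NLS t48 libraries alone, so this call adds no support beyond these reads. Lama3 fell at NLS t48 (-0.74, adjusted p = 0.0219), a call lost in 6 of 9 leave-out fits, with adjusted p up to 0.177 without line 6.

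Lamb1, the common beta chain, had 174, 186 and 173 CPM at NLS t0, 212, 207 and 212 CPM at t6 and 178, 196 and 191 CPM at t48, against 317 and 276 CPM at LacZ t48 and 260 and 281 CPM at LacZ t0. It was lower in NLS than in LacZ by -0.61 ± 0.07 at t0 (SE, adjusted p = 8.18e-06) and -0.65 ± 0.07 at t48 (adjusted p = 3.43e-06). At t6 it was higher by 0.24 (adjusted p = 0.0127), which was lost in 4 of 9 leave-out fits (adjusted p up to 0.142, without line 16), and the change from t6 to t48 (-0.16) passed with the block alone (adjusted p = 0.023, against 0.0675). Lamb2 ran the other way between the constructs, with 123 to 139 CPM at NLS t48 against 50 to 54.3 CPM at LacZ t48 (1.30 ± 0.16, adjusted p = 4.5e-05). At t0 it had 79.6 to 116 CPM in NLS against 55.1 to 59.8 CPM in LacZ (0.81 ± 0.16, adjusted p = 0.00148). Its NLS t48 change of 0.36 passed with the block alone (adjusted p = 0.024, against 0.0736). It fell by 0.63 at t6 (adjusted p = 0.00768), a call lost without line 6 (adjusted p = 0.089) and with transcript length offsets. Lamc1, the gamma chain of most laminins, had 356 to 406 CPM at NLS t0, 417 to 482 CPM at t6 and 479 to 493 CPM at t48, against 381 to 418 CPM at LacZ t48 and 378 to 411 CPM at LacZ t0. It rose by 0.36 ± 0.07 at NLS t48 (adjusted p = 0.00149) and its difference between the constructs at t0 did not pass (-0.05 ± 0.08, adjusted p = 0.604).

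Lamb3, the beta chain of an epithelial laminin that also holds Lama3, was low in the NLS lines. It had 3.85, 1.88 and 3.69 CPM at NLS t0, 2.2, 1.3 and 2.85 CPM at t6, and 4.19, 2.36 and 5.47 CPM at t48, against 4.67 and 6.86 CPM at LacZ t48 and 27.7 and 34 CPM at LacZ t0. The LacZ lines fell by 2.42 on the log2 scale (SE 0.39, adjusted p = 0.00199), a call lost without line 10 and without line 12 (adjusted p up to 0.0696). NLS against LacZ was -3.30 ± 0.35 at t0 (adjusted p = 2.31e-05) and -0.54 ± 0.38 at t48 (adjusted p = 0.277). The NLS change of Lamb3 at t6 (-0.55) passed with the block alone (adjusted p = 0.006, against 0.36). From t6 to t48 the block gave an adjusted p of 6.7e-05 for Lamb3, against 0.104 without it.

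Of the 11 enzymes, 8 were lower and 1 higher at t6 in the NLS lines, against 9.23% and 11.6% of all genes, and 7 were higher and 2 lower at t48, against 14.8% and 11.3%. In the LacZ lines 4 were higher and 1 lower at t48, against 8.68% and 9.87% of all genes. Plod2, the lysyl hydroxylase of the telopeptides, had 181, 176 and 181 CPM at NLS t0, 143, 132 and 140 CPM at t6, and 265, 246 and 252 CPM at t48, against 233 and 234 CPM at LacZ t48 and 225 and 231 CPM at LacZ t0. The NLS times did not overlap, with changes of -0.38 ± 0.05 at t6 (SE, adjusted p = 0.000132) and 0.51 ± 0.05 at t48 (adjusted p = 5.15e-06). The LacZ change was 0.03 ± 0.06 (adjusted p = 0.749), and the difference was 0.47 ± 0.08 (adjusted p = 0.000635). Plod3 was also lower at t6, a call lost in 5 of 9 leave-out fits (adjusted p up to 0.251, without line 6), and higher at t48 (0.42 ± 0.08, adjusted p = 0.00179) in the NLS lines. It was lower in the LacZ lines (-0.36, adjusted p = 0.0216), where the call was lost in 5 of 6 leave-out fits (adjusted p up to 0.248, without line 12). Plod1 rose by 0.14 in the NLS lines at t48 (adjusted p = 0.045) and by 0.62 ± 0.06 in the LacZ lines (adjusted p = 1.74e-05), with a difference of -0.48 ± 0.07 (adjusted p = 0.00052). The NLS call of Plod1 was lost in 9 of 9 leave-out fits (adjusted p up to 0.21, without line 16).

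P4ha1, the main prolyl 4-hydroxylase subunit, had 495, 507 and 507 CPM at NLS t0, 385, 372 and 376 CPM at t6, and 513, 522 and 530 CPM at t48, against 570 and 584 CPM at LacZ t48 and 512 and 532 CPM at LacZ t0. It fell by 0.41 at t6 (SE 0.04, adjusted p = 1.7e-05), and at t48 the change of 0.05 did not pass (adjusted p = 0.388). The LacZ change of 0.14 passed with the block alone (adjusted p = 0.0255, against 0.0657). P4ha2 had 210, 186 and 222 CPM at NLS t0, 124, 120 and 133 CPM at t6, and 274, 232 and 296 CPM at t48, against 227 and 217 CPM at LacZ t48 and 137 and 124 CPM at LacZ t0. It fell by 0.71 at t6 (SE 0.09, adjusted p = 0.000103) and rose by 0.38 ± 0.09 at t48 (adjusted p = 0.00576), a call lost without line 6 (adjusted p = 0.087). The LacZ rise was 0.77 ± 0.11 (adjusted p = 0.000398), and the difference of -0.39 ± 0.14 passed with the block alone (adjusted p = 0.00029, against 0.0552). P4ha3 had 2.01 to 7.24 CPM over the NLS libraries. Its NLS t48 groups overlapped with t0, and its call (0.79, adjusted p = 0.0414) was lost in 6 of 9 leave-out fits (adjusted p up to 0.205, without the t48 library of line 7).

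Lox, the founding lysyl oxidase, had 1560, 983 and 1713 CPM at NLS t0, 907, 630 and 1049 CPM at t6, and 1399, 1090 and 1411 CPM at t48, against 766 and 754 CPM at LacZ t48 and 688 and 747 CPM at LacZ t0. The t6 change of -0.72 ± 0.23 (SE) did not pass (adjusted p = 0.0553), nor did the t48 change of -0.13 (adjusted p = 0.737). With cell line as a block the t6 change passed (adjusted p = 1.77e-05), and so did the rise of 0.59 from t6 to t48 (adjusted p = 3.22e-05, against 0.0867). NLS exceeded LacZ by 0.98 ± 0.26 at t0 (adjusted p = 0.0142) and 0.77 ± 0.26 at t48 (adjusted p = 0.0371), calls lost in 5 of 10 and 8 of 10 leave-out fits, with adjusted p up to 0.116 without LacZ line 10 and 0.178 without LacZ line 12. Loxl1, tied to elastic fibres, had 26.9, 21.6 and 25.7 CPM at NLS t0, 11.2, 12.1 and 16.3 CPM at t6, and 36.6, 36.7 and 42.3 CPM at t48, against 21.4 to 22.6 CPM over the LacZ libraries. It fell by 0.90 at t6 (SE 0.13, adjusted p = 0.000285) and rose by 0.64 ± 0.12 at t48 (adjusted p = 0.00152). Loxl2, which also cross-links collagen IV, had 554 to 577, 452 to 468 and 617 to 634 CPM in the 3 NLS groups, against 511 to 518 CPM at LacZ t48 and 356 to 374 CPM at LacZ t0. Its NLS t48 call (0.14, adjusted p = 0.0282) was lost in 8 of 9 leave-out fits (adjusted p up to 0.211, without line 6). In the LacZ lines it rose by 0.50 ± 0.05 (adjusted p = 4.86e-05). Loxl3 fell at t48 (-0.25 ± 0.06, adjusted p = 0.00947) after a rise at t6 (0.33 ± 0.06, adjusted p = 0.00214), and both calls were lost when a line was left out (adjusted p = 0.0818 without line 7 and 0.0549 without line 16). Loxl4 had 51.4 to 69.4 CPM at NLS t0, 34.6 to 39.4 CPM at t6 and 45.1 to 50 CPM at t48. It fell by 0.75 at t6 (SE 0.10, adjusted p = 0.00026) and by 0.35 at t48 (adjusted p = 0.0218), both against t0.

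Between the constructs at t0, 19 members were higher in NLS and 13 lower, which is 68.1% of the members tested against 43.5% of all genes (21.1% higher and 22.4% lower). At t48, 28 were higher and 10 lower, or 80.9% against 45.1% (23% higher and 22.2% lower). At t48, 17 of 26 tested collagen chains were higher and 4 lower, and 4 of 10 laminin chains were higher and 4 lower. Leave-out fits lost 8 of the 32 calls at t0 and 12 of the 38 at t48. Each construct is represented by different lines, so construct and line cannot be told apart.

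Among the NLS lines, line 7 stood apart within time labels. Each line has 1 library per time label, so p-values between lines measure scatter across time labels and not across cultures of a line. Against line 16, 4 members were higher and 18 lower in line 7, or 46.8% of the members tested against 22.6% of all genes (11.8% higher and 10.8% lower). Against line 6, 3 were higher and 10 lower, where 11.1% of all genes were called (5.9% higher and 5.19% lower). Line 6 against line 16 gave 2 lower members, among them Lama5, where 2.26% of all genes were called (0.882% higher and 1.38% lower). Col4a5 gave the lowest line 7 value relative to line 16 among the called members, with 7.54 ± 3.43 CPM in line 7 and 19.2 ± 9.54 CPM in line 16 (SD, n = 3 times) and a log2 fold change of -1.34 ± 0.10 (SE, adjusted p = 2.72e-07). Lox (-0.64 ± 0.07, adjusted p = 0.000114), Col8a1 (-0.59 ± 0.06, adjusted p = 2.13e-06) and P4ha2 (-0.25 ± 0.04, adjusted p = 0.000643) were also lower in line 7, in each of the 3 time labels. These calls held with any 1 library left out. With the time label left out of the fit no member was called in either comparison of line 7. Of all genes, 0.069% were then called against line 16 and 0% against line 6. With transcript length offsets 9 members were called against line 16 and 5 against line 6, where 7.9% and 3.34% of all genes were called. Leaving out a library gave 10 to 20 calls for line 7 against line 16, where 11.6 to 19% of all genes were called. For line 6 against line 16 it gave 0 to 3 calls, where 0.868 to 4.49% of all genes were called. Adcy10 differed between all 3 lines, as given above, and its part in these differences was not tested.

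**Figure D5:**
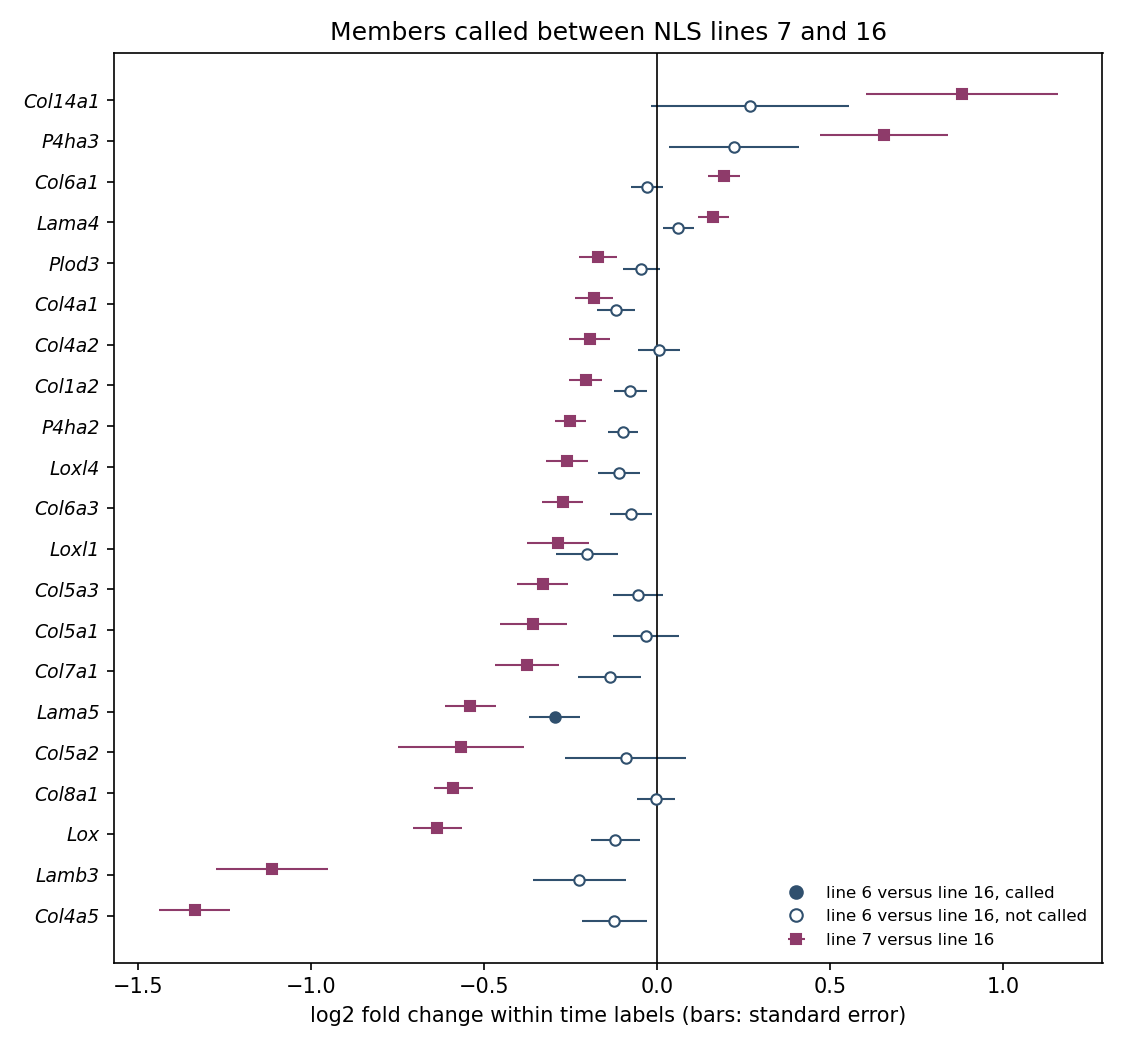
Log2 fold change of members called between NLS lines 7 and 16 (squares), with the same members for line 6 against line 16 (circles, filled where called), fitted within time labels. Bars are standard errors, as in the plot by class. Most squares lie left of 0, from -0.17 to -1.34, and most circles lie closer to 0.

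No member was called between line 12 and line 10 by edgeR as fitted above, where 0.123% of all genes were called (0.092% higher and 0.0307% lower), and 7 members had an unadjusted p below 0.05. DESeq2 called 1 member (Col18a1, -0.25, adjusted p = 0.00552). Without the low-count filter edgeR also called Col18a1 (adjusted p = 0.0258), and with the compared libraries alone it called Col16a1 and Col5a3 (adjusted p = 0.0183 and 0.0407).

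Genes that work with these proteins were counted from lists chosen by role. Their counts stand against the shares of all genes called, 14.8% higher and 11.3% lower at NLS t48 and 11.6% higher and 9.23% lower at t6, and in lists this short 1 or 2 called genes are near those shares. Among 13 tested procollagen folding partners, 6 were higher and 1 lower at NLS t48 against t0, and 1 was higher and 3 lower at t6. Serpinh1, the collagen chaperone HSP47, averaged 2318 ± 47 CPM at t48 and 1547 ± 129 CPM at t0 (SD, n = 3 each), a log2 fold change of 0.58 (adjusted p = 2.81e-05). P3h2, a prolyl 3-hydroxylase that acts on collagen IV, fell in NLS (-0.47, adjusted p = 0.0121) and in LacZ (-0.85, adjusted p = 0.00212). Among 8 export genes 4 were higher and 1 lower at t48, with Mia3, which loads procollagen into carriers, at 256 ± 4.75 CPM and 196 ± 1.06 CPM (0.39, adjusted p = 3.36e-05). Creb3l1, a transcription factor of secretory cells, rose in NLS (0.57, adjusted p = 0.00228) and fell in LacZ (-0.55, adjusted p = 0.0145), a difference of 1.11 ± 0.17 (adjusted p = 0.000729).

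Of 6 tested propeptide processing genes, 4 were higher at NLS t48 than at t0. Adamts3, a procollagen N-proteinase, averaged 9.79 ± 2.05 CPM at t48 and 0.732 ± 0.352 CPM at t0 (3.73 ± 0.31, adjusted p = 2.72e-06), and Bmp1, the C-proteinase, 206 ± 23.8 CPM and 122 ± 8.27 CPM (0.76, adjusted p = 2.42e-05). Adamts2 separated the constructs, with 73.9 ± 1.67 CPM at NLS t48 (n = 3) and 5.6 ± 0.842 CPM at LacZ t48 (n = 2), a log2 fold change of 3.72 (adjusted p = 1.81e-10). Of 7 tested proteases and inhibitors, 3 were higher and 1 lower at NLS t48. Mmp9, a gelatinase, was highest at t6, with 9.92 ± 1.26 CPM at t6 and 1.62 ± 0.292 CPM at t0 (2.61, adjusted p = 7.95e-07).

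Of 8 collagen receptors, 2 were higher and 2 lower at NLS t48, and of 5 tested laminin receptors 3 were lower. Itga6 averaged 58.8 ± 5.84 CPM at NLS t48 and 97.3 ± 18.6 CPM at t0 (-0.73, adjusted p = 0.00176), while in LacZ lines it had 104 ± 0.104 CPM at t48 and 42.3 ± 3.97 CPM at t0 (1.30, adjusted p = 0.00037). The difference was -2.02 ± 0.21 (adjusted p = 5.04e-05). Itga7, a muscle laminin receptor, and Itga3, another laminin-binding integrin chain, were lower in NLS at t0, by -2.42 and -1.49 (adjusted p = 1.02e-09 and 8.98e-07). Of 5 tested basement membrane partners, 3 were higher at NLS t48. Nid2, which links laminin to collagen IV, rose by 0.65 ± 0.08 in NLS (adjusted p = 4.84e-05) and fell in LacZ, with 70.1 ± 3.27 CPM at t48 and 161 ± 4.93 CPM at t0 (SD, n = 2 each, adjusted p = 6.2e-06), a difference of 1.85 ± 0.13 (adjusted p = 6.78e-07).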

How the data were processed

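Per the labels' protocols, the 13 libraries were made from Trizol-extracted RNA as stranded paired-end poly(A) libraries. Salmon (version 1.2.0, mouse build GRCm38) was the authors' quantifier, per the submitters' processing notes, which name neither transcript set nor options. Each deposited file lists, per the file headers, a transcript's estimated count (reads), its TPM (scaled by length and depth) and its effective length. Salmon divides reads among transcripts that fit them, so reads shared by overlapping genes such as the ends of Col4a1 and Col4a2 are uncertain.

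Estimated counts of the 115977 of 116546 transcripts (99.5%) found in GENCODE M21 were summed per gene and rounded. Unmatched transcripts held 0.121 to 0.165% of reads. Genes were tested with edgeR 4.0.16 in R 4.3.3 (TMM, its low-count filter, robust quasi-likelihood, 13044 genes). The time and construct comparisons used 1 fit over 5 groups, and the line comparisons added line number within time labels. P-values were adjusted by Benjamini-Hochberg over all genes tested and called below 0.05. Standard errors were derived from the test statistic, or from read counting alone where that was larger. CPM is on TMM library sizes. The filter keeps genes by their counts in the smallest group, so a member can pass through the group where it is high. Col4a4 passed through LacZ libraries, Col4a1, Col4a2 and Col8a2 through NLS libraries and Lama1 through those of NLS t48. Motifs were searched as exact letters on both strands. Intervals are exact 95% Poisson intervals.

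Members and gene lists were chosen with earlier results of these data known. The members described in full are, per class and comparison, up to 2 higher and 2 lower called members with the largest change and a mean log2 CPM of at least 1, plus Col1a1, Col1a2, Col3a1, Col4a1, Col4a2, Lox, Plod2, P4ha1, Lamb1, Lamc1 and Adcy10. Others were named after their values were seen. Partner genes were named by smallest p. The values of 1 tested member, which is in the counts, are not reported here.

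Libraries with 1 line number come, per their labels, from 1 cell line, so the numbers pair them. Deviations from group means correlated across genes at r = 0.077 to 0.393 in 9 same-line NLS pairs and at -0.381 to 0.0681 in 18 different-line pairs, and at 0.0283 in LacZ. The closest replicates differed by a chi-square of 6.94 per degree of freedom, so no pair agreed within sampling noise. Alternatives were other scalings, DESeq2 1.42.0, no low-count filter, the compared libraries alone, transcript length offsets, protein-coding transcripts alone, the line as a block, and leaving out each library or line.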

Additional observations from a re-analysis of the deposited data

Results flagged for a closer look

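The change from t0 to t48 differed between the NLS and LacZ lines for 24 members by the interaction term of the edgeR fit (adjusted p below 0.05). The log2 values below are the NLS change minus the LacZ change. Among collagens they were 5.37 for Col2a1, 4.55 for Col4a4, 3.11 for Col11a2, 1.53 for Col5a2, 1.24 for Col12a1, 1.19 for Col5a1, 1.15 for Col7a1, 1.14 for Col3a1, 0.92 for Col6a2, 0.70 for Col1a2, 0.61 for Col6a1 and -1.27 for Col18a1. Among laminin chains they were 2.76 for Lamb3, 1.97 for Lama2, 1.96 for Lama5, 0.34 for Lamc1, -0.66 for Lama4 and -1.40 for Lama3. Among enzymes they were 0.78 for Plod3, 0.68 for Loxl1, 0.47 for Plod2, -0.36 for Loxl2, -0.48 for Plod1 and -0.49 for Loxl3. For Col4a4, Col11a2 and Lama3 all values are at most 6.14 CPM. At least 1 leave-out fit lost 8 of the 24 calls. Lamc1 was lost in 10 of 15 of them (adjusted p up to 0.371, without line 12) and Loxl1 in 7 of 15 (up to 0.167, without line 12). No group has 4 or more libraries, so single libraries were not screened.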

How the results depend on the processing

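Apart from the leave-out fits, whose ranges are given below, counts of members called stayed within 1.5 times under all alternatives except these. With the line number as a replicate block, LacZ t48 against t0 gave 24 calls in place of 15. For line 6 against line 16, in place of 2, DESeq2 and protein-coding transcripts alone gave 1 each, and transcript length offsets and no replicate block (time label left out) gave 0 each. In that order, 2.4%, 1.68%, 0.544% and 0.00767% of all genes were called. For line 7, no replicate block gave 0 against lines 16 and 6, where 0.069% and 0% of all genes were called. Offsets gave 9 and 5, where 7.9% and 3.34% of all genes were called. For LacZ line 12 against line 10, DESeq2 and no low-count filter gave 1 each and the compared libraries alone 2, in place of 0. There 0.788%, 0.379% and 2.48% of all genes were called. Col7a1 alone reversed: for line 7 against line 16 it was 0.027 with offsets (adjusted p = 0.973). The block lost no call in the time comparisons and added 4 at NLS t48, 8 at NLS t6, 8 for NLS t48 against t6, 9 in LacZ and 6 for the difference. In that order, 39.8%, 34.7%, 41.2%, 33% and 37.4% of all genes were called with the block. Leaving out a library or a line gave 19 to 30 calls for NLS t48 against t0, 15 to 31 for t6 against t0, 27 to 33 for t48 against t6, 6 to 12 for LacZ, 18 to 29 for the difference, 26 to 31 for the constructs at t0, 29 to 38 at t48, 0 to 3 for line 6 against line 16, 10 to 20 and 7 to 16 for line 7 against lines 16 and 6, and 0 to 0 for the LacZ lines. The fewest LacZ calls, 6, came without line 10 and also without line 12. In the leave-out fits 12.4 to 23.7% of all genes were called for NLS t48 against t0. For t6 against t0 this share was 7.71 to 21.7%, and for t48 against t6 15.8 to 25.6%. Without an NLS line it was 14 to 24.6% for the difference. It was then 34.8 to 44.1% for the constructs at t0 and 36.9 to 46.2% at t48. These shares do not cover fits with a LacZ library or line left out. Such fits gave the lowest member counts for the difference and for the constructs. Line 7 against line 6 gave 4.58 to 9.84%. Values of named members under the alternatives were classed against the main fit as the same (3640), weaker (392), stronger (30) or reversed (1). With library totals only, all genes split into 705 higher and 1756 lower in LacZ t48 against t0, in place of 1132 and 1287, and the members into 7 and 7. Groups of 2 and 3 libraries limit precision, and members below about 1 CPM rest on few reads.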
